A study of Mus musculus with 4 samples.

Results

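Cartilage cells of mice with a cartilage-directed deletion of Sox9 were compared with wild-type cartilage cells at postnatal day 19. Cells were freed enzymatically from the ends of the tibia and femur, and droplet single-cell RNA libraries were made from them. The mutant mice were Sox9fl:fl AcanCreERT2/+, that is, both Sox9 alleles were floxed and a tamoxifen-dependent Cre recombinase was expressed from the aggrecan gene, which is active in cartilage cells. The controls were labelled wild type, so they are not labelled as carrying Cre or floxed alleles. Each genotype was 1 library at this age, and libraries of the same genotypes at day 13 are given only beside the day 19 values. No source used here gives the tamoxifen schedule, the floxed exons, the strain or how many mice went into a library. Groups follow the labels of the samples. The series' design text instead gives an age of 3 months and adds mice with Sox8 mutated as well as Sox9, and no sample used here is labelled so.

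Cartilage barcodes were chosen by measured values. A barcode was kept when it had at least 500 genes, at most 15% mitochondrial UMIs (unique molecular identifiers, each counting 1 captured RNA molecule), no UMI of the leukocyte gene Ptprc, and at least 100 UMIs of Col2a1 per 10000. Col2a1 encodes type II collagen, the main collagen of cartilage. This kept 1088 wild-type and 2252 mutant barcodes, 3340 of the 39898 barcodes in the series. The same rule kept 4541 and 2599 barcodes at day 13.

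SOX9 is a transcription factor that directs mesenchymal cells to the cartilage fate and, with SOX5 and SOX6, drives genes of the cartilage matrix. In postnatal long bones, chondrocytes form the articular surface and the growth plate, where they pass from a resting to a proliferating and then a hypertrophic state before bone replaces them. Fibrous matrix genes such as Col1a1 are normally low in chondrocytes, and genes such as Ibsp and Mmp13 mark late hypertrophic cells and osteoblasts.

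With 1 library per group no test between genotypes was possible. All intervals are exact 95% intervals that cover counting error only, and the spread between mice is unknown. Levels are in CPM, the UMIs of a gene summed over the kept barcodes of a library and scaled by that library's summed UMIs. Ratios are mutant over wild type on the log2 scale, and in each pair of levels the wild type is given first. In such sums, fewer cells with a transcript and less of it per cell cannot be told apart. A gene was measured when it reached 10 CPM in at least 1 of the libraries, and a difference was counted at 2-fold or more. A gene under 10 CPM in 1 library was therefore measured only if the other library was higher, which fixed its direction.

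The day 19 libraries held 70507107 UMIs in the wild type and 76080803 in the mutant, of which the kept barcodes held 20131922 and 25472526. The median depth of a kept barcode was 16722.5 UMIs in the wild type and 10066 in the mutant, and the median number of genes was 3363 and 2602.5. After each cell was thinned to 2000 UMIs, Acan was seen in 97.4% of wild-type (96.2 to 98.2) and 83.6% of mutant barcodes (81.9 to 85.1), and Col9a3 in 98.0% and 85.8%. Neutrophil-marked barcodes of the same libraries, which should not express cartilage genes, held Acan in 16% and 12.5%, so barcodes of other cells also carried cartilage RNA in both libraries. Their median depth was 4900 and 3044 UMIs. Among other cell types, the 6 neutrophil markers summed to 268 CPM in wild-type and 892 CPM in mutant cartilage barcodes, against 287510 and 264794 CPM in the neutrophil-marked barcodes. The 6 erythroid markers summed to 14632 and 7584 CPM, and the 5 T and NK cell markers to 1.24 and 1.81 CPM, with 3 of them at 0 in the wild type and 1 at 0 in the mutant. Endothelial markers summed to 13.7 and 18.6 CPM, and tendon markers to 57.2 and 73.5 CPM. The libraries shared 2 kept barcode sequences.

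The rule cut the libraries at different places. In the wild type, Col2a1 formed separate low and high populations, with 8 barcodes at 90 to 100 and 5 at 100 to 110 Col2a1 UMIs per 10000. The mutant had no such low point, and the same windows held 98 and 84 barcodes. Between 100 and 200 there were 60 wild-type and 728 mutant barcodes, between 200 and 400 there were 179 and 688, and at 400 or more 849 and 836. A further 540 wild-type and 1309 mutant barcodes lay just below the rule, at 30 to 100. The median of the kept barcodes was 555 per 10000 in the wild type and 295 in the mutant, which follows in part from the rule and is not read further.

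**Figure D1:**
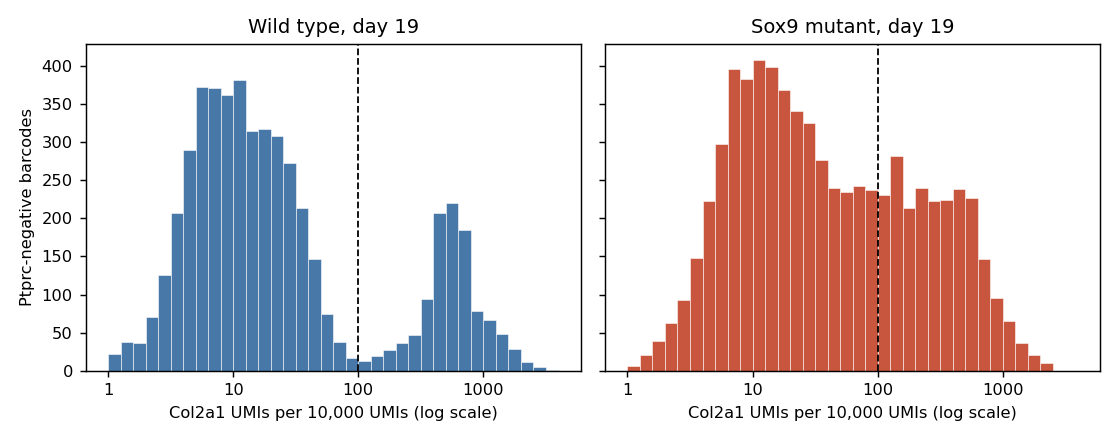
Col2a1 UMIs per 10,000 UMIs (log scale) in Ptprc-negative barcodes of the wild-type (left) and Sox9 mutant (right) day 19 libraries, with the number of barcodes per bin on the vertical axis and the threshold of 100 as a dashed line. The wild type has a low point at the threshold (8 barcodes at 90 to 100 and 5 at 100 to 110) and the mutant has none (98 and 84).

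The mutant barcodes below the rule still held cartilage RNA. At Col2a1 of 30 to 100 per 10000, Acan stood at 413 CPM in the wild type and 879 CPM in the mutant, the reverse of the order above the threshold. Chad, which encodes the cartilage protein chondroadherin, stood at 176 CPM and 2172 CPM there, and Mmp13 at 78.8 and 788 CPM. Neutrophil-marked barcodes held Col2a1 at 4304 and 3984 CPM, a share within that band, and Acan at 276 and 182 CPM. Barcodes of other cells can thus fall in the band, and their part in these levels was not tested. The values below therefore describe the mutant cells with the most Col2a1, and not all mutant cells with cartilage RNA.

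Sox9, on chromosome 11 (112782224 to 112787760, GRCm38), was at 450 CPM in the wild type (441 to 460) and 178 CPM in the mutant (173 to 183). The ratio was -1.34 on the log2 scale (-1.39 to -1.29), a 2.53-fold lower level, and the counting intervals did not overlap. Sox9 UMIs remained in the mutant, in 28.3% of thinned cells (26.4 to 30.2) against 55.3% in the wild type (52.2 to 58.3) and 4.21% of mutant neutrophil-marked barcodes. The chemistry reads 3′ ends and the floxed exons are not given, so a UMI may come from a recombined allele, and this value does not measure the share of cells that lost the gene.

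The partners of SOX9 did not move with it to the same extent. Sox5 was at 195 CPM in the wild type and 128 CPM in the mutant, a log2 ratio of -0.60 (-0.67 to -0.54). Sox6 was at 78.4 and 92.7 CPM, a ratio of 0.24 (0.15 to 0.33). Sox8, the close relative of Sox9, was low in both, at 24.6 and 13.1 CPM, a ratio of -0.91 (-1.12 to -0.71). Sox4, a SOX gene of another subgroup, was higher in the mutant, at 45.7 and 87.0 CPM.

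Acan, which encodes aggrecan, the main proteoglycan of cartilage and also the gene that drives Cre here, lies on chromosome 7 (79053483 to 79115099). It was at 4248 CPM in the wild type (4219 to 4276) and 1304 CPM in the mutant (1290 to 1318), a 3.26-fold lower level and a log2 ratio of -1.70 (-1.72 to -1.69). At 2000 UMIs per cell the wild-type median was 7 Acan UMIs with a 10th percentile of 2, and the mutant median was 2. In the mutant, 59.7% of cells (57.6 to 61.7) reached that 10th percentile, against 92.2% in the wild type. The mutant allele carries CreERT2 in Acan, and the part this has in the Acan level was not tested.

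Over 7337 measured genes, 452 (6.16%) were 2-fold or more higher in the mutant and 185 (2.52%) were 2-fold or more lower, 8.68% in either direction. The median log2 ratio of all measured genes was 0.02. The plot of the levels of all measured genes shows the 15 highest and the 15 lowest ratios by name.

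**Figure D2:**
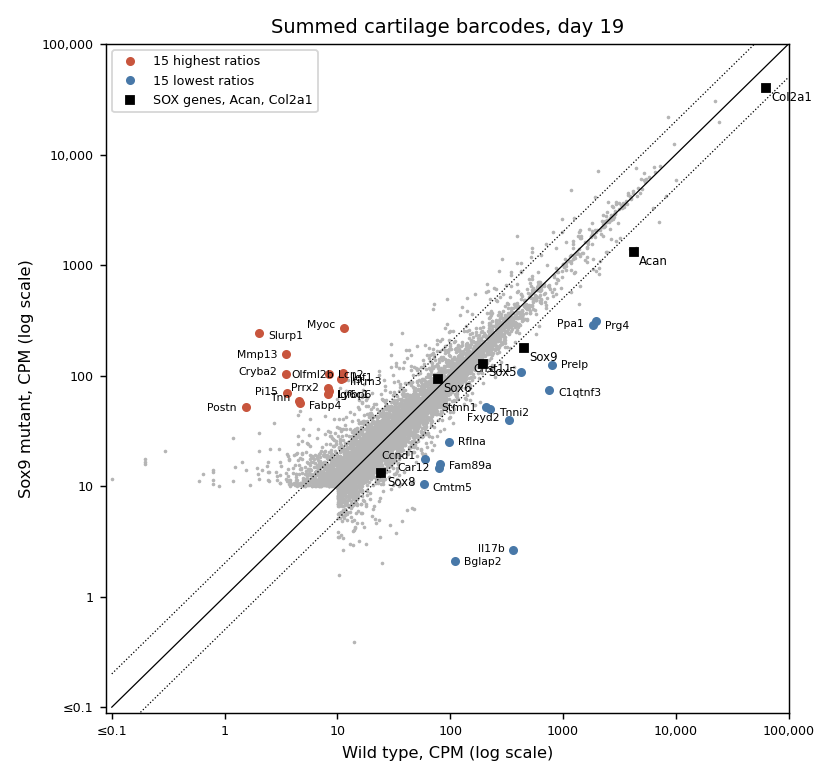
Level of each measured gene in summed cartilage barcodes of the wild type (horizontal) and the Sox9 mutant (vertical), in CPM on log scales, with the line of equality and dotted lines at 2-fold. Red points are the 15 highest and blue points the 15 lowest ratios by the naming rule, and black squares are SOX genes, Acan and Col2a1. Slurp1 and Mmp13 lie farthest above and Il17b and Bglap2 farthest below.

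The gene with the highest ratio was Slurp1, on chromosome 15 (74724318 to 74728034), which encodes a secreted protein of the Ly6 family known from skin. It was at 2.04 CPM in the wild type (41 UMIs) and 241 CPM in the mutant (6131 UMIs), 118-fold higher, with a log2 ratio of 6.88 (6.44 to 7.36). Mmp13, on chromosome 9 (7272514 to 7283331), encodes collagenase 3, which cleaves type II collagen. It was at 3.53 CPM (71 UMIs) and 156 CPM (3971 UMIs), 44.2-fold higher. Myoc, which encodes the secreted protein myocilin, known from the eye, was at 11.5 and 268 CPM, 23.3-fold higher. Cryba2, a crystallin gene of the lens, was at 3.53 and 104 CPM. Pi15, which encodes a secreted protease inhibitor, was at 3.58 and 69.2 CPM.

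These genes were found in a minority of mutant cells. After thinning, Slurp1 was seen in 10.01% of mutant cartilage cells (8.78 to 11.4), Myoc in 19.1% (17.5 to 20.8), Pi15 in 10.2% (8.91 to 11.5) and Cryba2 in 4.27% (3.46 to 5.21). The mutant neutrophil-marked barcodes held them in 1.44%, 3.104%, 1.33% and 1.11%, and wild-type cartilage cells in 0.658%, 2.26%, 0.846% and 0.188%. Without thinning the mutant shares were 18.8%, 33.7%, 22.3% and 7.90%.

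Mmp13 and Postn differed from these in their background. Mmp13 was seen in 9.78% of thinned mutant cartilage cells (8.57 to 11.1) and in 10.4% of mutant neutrophil-marked barcodes (8.50 to 12.6), so the share of cartilage cells was at the background. Summed, Mmp13 gave 1.76 UMIs per mutant cartilage barcode and 0.629 per neutrophil-marked barcode. Postn, which encodes periostin of fibrous tissue and periosteum, was at 1.54 and 51.5 CPM, 33.5-fold higher, with 0.583 UMIs per mutant cartilage barcode and 0.279 per neutrophil-marked barcode. Mutant cartilage barcodes were deeper, at a mean of 11311 UMIs against 4571. In CPM, mutant neutrophil-marked barcodes held Mmp13 at 138 and Postn at 60.9, against 156 and 51.5 in mutant cartilage. Postn was thus not above its background on that scale. The mutant library as a whole held more free RNA of both genes than the wild type, whose neutrophil-marked barcodes had each at 0.255 CPM. With the neutrophil-marked UMIs per barcode subtracted, the log2 ratio of Mmp13 went from 5.47 to 4.90 and that of Postn from 5.07 to 4.26. Both stayed higher in the mutant, but a subtraction scaled to depth was not run.

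The rest of the 15 highest were Tnn, Lcn2, Fabp4, Prrx2, Igf1, Ly6c1, Ifitm3, Olfml2b and Igfbp6, between 8.29-fold and 13.0-fold higher. Lcn2 and Ifitm3 are strong neutrophil genes here, at 5991 and 780 CPM in the mutant neutrophil-marked barcodes against 103 and 92.5 CPM in cartilage. The summed neutrophil markers were also higher in mutant cartilage barcodes, and their part in these ratios was not tested. Igf1, a growth factor of skeletal growth, was at 11.2 and 105 CPM, and Prrx2, a transcription factor of limb mesenchyme, at 8.30 and 77.7 CPM. Fabp4, an adipocyte and endothelial gene, was at 4.67 and 56.1 CPM.

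The gene with the lowest ratio was Il17b, which encodes a secreted cytokine of the interleukin 17 family. It was at 364 CPM in the wild type (7324 UMIs) and 2.63 CPM in the mutant (67 UMIs), 138-fold lower, with a log2 ratio of -7.11 (-7.48 to -6.77). It was seen in 21.6% of thinned wild-type cells (19.2 to 24.2) and 0.184% of mutant cells (0.0501 to 0.470), that is in 4 of 2177. C1qtnf3, which encodes a secreted C1q-like protein known from cartilage, was at 756 and 73.3 CPM, 10.3-fold lower. Fxyd2, a regulator of the sodium pump, was at 329 and 39.9 CPM, and Ppa1, an inorganic pyrophosphatase, at 1852 and 287 CPM. Prelp, a leucine-rich repeat protein of cartilage matrix, was at 792 and 126 CPM, 6.30-fold lower. The others of the 15 lowest, apart from Bglap2, were Prg4, Cmtm5, Car12, Fam89a, Tnni2, Stmn1, Chst11, Rflna and the cyclin gene Ccnd1, between 3.38-fold and 6.35-fold lower. Stmn1 was higher in neutrophil-marked barcodes, at 385 and 97.3 CPM, than in cartilage, at 207 and 51.5 CPM. The part of other cells' RNA in its ratio was not tested.

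Bglap2 was among the lowest, at 110 CPM in the wild type and 2.08 CPM in the mutant, while its neighbour Bglap on chromosome 3 was higher, at 210 and 678 CPM. Both encode osteocalcin, a protein that osteoblasts secrete into bone. Their annotated transcripts are 92.6% identical over 471 aligned bases, and the last 100 bases, near where this chemistry reads, are identical. UMIs can therefore be split between the copies by the counting, and the ratio of either copy alone is uncertain. A difference in strain between the libraries cannot be told apart from the genotype.

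Promoter sequence is shown for 2 of the genes with the highest ratios that share short motifs in the 250 bases before their start, and for Acan, the cartilage matrix gene that also drives Cre. Sequences are RefSeq's on GRCm38.p6, written 5′ to 3′ on the gene's strand and ending at RefSeq's start, which for Acan lies upstream of the GENCODE start given above. Capitals mark the AP-1 motif TGANTCA and the RUNX motif TGTGGT or its complement, searched on both strands with the SOX motif ACAATG. No marked matches overlap.
Mmp13, chr9:7272264-7272513, plus strand: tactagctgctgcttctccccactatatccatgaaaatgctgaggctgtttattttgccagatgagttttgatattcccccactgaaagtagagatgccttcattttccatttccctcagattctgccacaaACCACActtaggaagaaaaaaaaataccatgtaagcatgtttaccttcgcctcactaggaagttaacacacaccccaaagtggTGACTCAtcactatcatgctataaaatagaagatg
Cryba2, chr1:74893144-74893393, minus strand: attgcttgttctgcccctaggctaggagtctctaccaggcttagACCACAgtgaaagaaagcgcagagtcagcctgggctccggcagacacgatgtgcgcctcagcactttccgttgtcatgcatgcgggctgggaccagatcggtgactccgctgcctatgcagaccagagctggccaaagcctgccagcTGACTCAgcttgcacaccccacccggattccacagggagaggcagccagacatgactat
Acan, chr7:79052976-79053225, plus strand: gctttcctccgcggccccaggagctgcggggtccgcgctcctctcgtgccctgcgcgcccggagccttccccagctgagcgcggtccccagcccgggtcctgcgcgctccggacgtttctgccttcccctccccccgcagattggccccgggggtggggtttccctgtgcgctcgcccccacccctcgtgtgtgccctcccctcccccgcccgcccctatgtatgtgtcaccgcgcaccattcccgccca

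In Mmp13 the AP-1 match began 35 bases and the RUNX match 118 bases before the start, and in Cryba2 59 and 206 bases. The Acan window held none of the 3 motifs. Windows were matched to 5781 of the measured genes and to 29 of the 42 named genes. An AP-1 match stood in 3.82% of measured genes (3.34 to 4.35) and in 7.19% of the 320 matched genes that were 2-fold or more higher (4.61 to 10.6). It stood in 3.101% of the 129 that were 2-fold or more lower (0.851 to 7.75). Of all 27025 windows of this length, 11.0% held the SOX, 6.87% the AP-1 and 14.2% the RUNX motif. Of the 15 highest, 12 had a window and 4 of these held an AP-1 match, in Mmp13, Cryba2, Igf1 and Ifitm3. The search took any base at N, and the match read TGACTCA in Mmp13 and Cryba2, TGAATCA in Igf1 and TGATTCA in Ifitm3. The SOX motif stood in 5.45% of measured genes, in 5.31% of the higher and in 2.33% of the lower genes, and the RUNX motif in 9.86%, 10% and 11.6%. A match is a description of letters and not of a bound site.

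All 6 measured cartilage collagen genes apart from Col2a1 had lower levels in the mutant, 2 of them past 2-fold, with a median log2 ratio of -0.89. Col9a2 and Col9a3, which encode chains of type IX collagen on the surface of type II fibrils, were lowest, at 4400 and 1430 CPM and at 7090 and 2449 CPM, ratios of -1.62 and -1.53. Col9a1 had a ratio of -0.87, Col11a1 of -0.91, Col11a2 of -0.84 and Col27a1 of -0.66. The chains of type IX collagen differed by unequal amounts.

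In the list of aggrecan, link proteins and hyaluronan genes, 2 of 8 measured members were 2-fold or more lower and 1 was 2-fold or more higher. Hapln1, the link protein that ties aggrecan to hyaluronan, was at 3955 and 1398 CPM, 2.83-fold lower. Vcan, which encodes versican, the related proteoglycan of fibrous and early mesenchymal matrix, was at 17.1 and 39.1 CPM, 2.28-fold higher. Has2, a hyaluronan synthase, was at 38.3 and 30.9 CPM.

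Other cartilage proteins differed in direction. Of 15 measured members, 4 were 2-fold or more lower and 2 were 2-fold or more higher, with a median of -0.45. Matn3, matrilin 3 of the growth plate, was at 1387 and 444 CPM, Ucma, a matrix protein of resting cartilage, at 2079 and 824 CPM, Matn1 at 578 and 239 CPM and Clec3a at 33.9 and 14.6 CPM. Chad was higher, at 983 and 2634 CPM, 2.68-fold, and Matn2, a matrilin of many connective tissues, was at 34.7 and 89.7 CPM. Comp, a cartilage and tendon protein that binds collagen, was at 4414 and 7531 CPM, 1.71-fold higher. Chad was seen in 63.3% of thinned wild-type and 83.1% of thinned mutant cells, against 6% and 22.4% of neutrophil-marked barcodes.

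Small leucine-rich proteoglycans bind collagen fibrils. Of 9 measured members, 4 were 2-fold or more higher and 1, Prelp, was 2-fold or more lower, with a median of 0.57. Lum was at 268 and 888 CPM, Ogn at 60.4 and 191 CPM, Dcn at 811 and 1973 CPM and Podn at 5.46 and 14.3 CPM. Podn was measured only through its mutant level. Bgn and Fmod, at ratios of 0.56 and 0.41, were within 2-fold.

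Genes of sulfation and glycosaminoglycan synthesis, which build the chondroitin sulfate chains of aggrecan, had a median of -0.74. Of 16 measured members, 5 were 2-fold or more lower and 0 were 2-fold or more higher. Chst11, a chondroitin sulfotransferase, was at 422 and 107 CPM, 3.93-fold lower. Papss2, which makes the activated sulfate donor in cartilage, was at 368 and 119 CPM, and Slc26a2, the sulfate transporter, at 142 and 66.4 CPM. Csgalnact1, which starts the chain, was at 72.3 and 34.3 CPM and Chst3 at 22.4 and 10.9 CPM. Chst12, Chpf and Chsy1 had ratios of 0.03, 0.03 and 0.18.

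**Figure D3:**
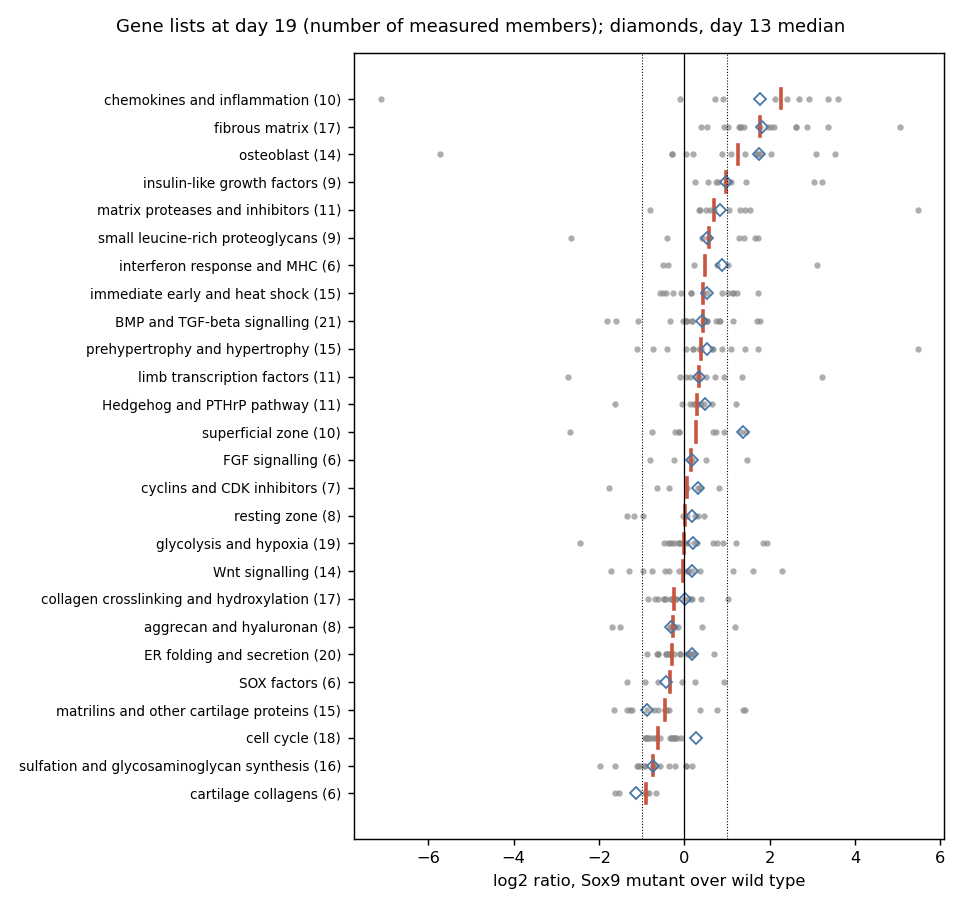
Log2 ratio of mutant over wild type at day 19 for each measured member (grey points) of the 26 gene lists, with the list median (red bar) and the median at day 13 (blue diamond), and dotted lines at 2-fold. Cartilage collagens lie lowest (median -0.89), and fibrous matrix (1.79) and chemokines (2.26) highest. Members under 10 CPM in the wild type were measured only through the mutant and can lie only above 0.

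The fibrous matrix list was higher as a whole. All 17 measured members had a ratio above 0, against 51.8% of all measured genes, 14 were 2-fold or more higher, and the median was 1.79. Col1a1, the main collagen of bone and fibrous tissue, was at 1174 and 4777 CPM, 4.07-fold higher, and Col3a1 was at 289 and 1123 CPM. Col5a1, which nucleates type I fibrils, was at 72.6 and 444 CPM, 6.12-fold higher, and Col14a1 at 11.9 and 73.2 CPM. Eln, which encodes elastin, was at 4.67 and 47.9 CPM and Tnc, tenascin C, at 10.6 and 77.5 CPM. Eln and Postn, also in this list at 1.54 CPM in the wild type, were measured only through their mutant level. Their ratios could therefore lie only above 0. Within 2-fold were Col12a1, Fbn1 and Lox.

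Free RNA of these genes was also higher in the mutant library. Col1a1 gave 9.69 UMIs per mutant neutrophil-marked barcode against 0.808 in the wild type, and 54.0 and 21.7 UMIs per cartilage barcode. Its share of thinned cells was 64.9% in mutant cartilage and 58.4% in mutant neutrophil-marked barcodes, against 25.3% and 11.3% in the wild type. Col3a1 stood farther from its background, in 75.7% of mutant cartilage cells and 18.7% of mutant neutrophil-marked barcodes. With the neutrophil-marked UMIs per barcode subtracted, not scaled to depth, the median of the fibrous list was 1.67.

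Of 11 measured proteases and inhibitors, 5 were 2-fold or more higher and 0 were lower, with a median of 0.70. Besides Mmp13, which was measured only through its mutant level, these were Mmp3, at 13.4 and 39.2 CPM, and Htra1, a secreted serine protease, at 209 and 565 CPM. The others were the inhibitors Timp1, at 316 and 656 CPM, and Timp2, at 246 and 614 CPM. Ctsk, a cathepsin of osteoclasts also found in other skeletal cells, was at 61.1 and 34.8 CPM.

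Genes of prehypertrophy and hypertrophy were divided. Of 15 measured members, 4 were 2-fold or more higher, namely Mmp13, Alpl, Spp1 and Ibsp, and 1 was lower. Mmp13 was measured only through its mutant level. Alpl, the alkaline phosphatase of mineralizing cells, was at 166 and 546 CPM, Spp1, osteopontin, at 528 and 1421 CPM, and Ibsp, bone sialoprotein, at 1255 and 2687 CPM. Panx3, a channel protein of prehypertrophic cells, was lower, at 108 and 50.1 CPM. Col10a1, the collagen of hypertrophic cells, was at 428 and 541 CPM, a ratio of 0.34, and Ihh, the ligand from prehypertrophic cells, at 55.4 and 86.6 CPM. Cells with Col10a1 at 50 or more per 10000 UMIs were 15 of 1088 in the wild type and 30 of 2252 in the mutant, and the 15 wild-type cells held 7212 of the 8625 wild-type Col10a1 UMIs. Spp1 was seen in 23.8% of thinned mutant cartilage cells and in 24.4% of mutant neutrophil-marked barcodes, so its share was at the background.

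In the Hedgehog and PTHrP pathway, 9 of 11 measured members had a ratio above 0, against 51.8% of all measured genes. Of the 11, 1 was 2-fold or more higher and 1 lower. Boc, a co-receptor for hedgehog ligands, was at 49.9 and 116 CPM, and Hhip, a decoy receptor, at 50.3 and 16.4 CPM, 3.06-fold lower. The targets Ptch1 and Gli1 had ratios of -0.06 (-0.16 to 0.04) and 0.39 (0.18 to 0.61), and the interval for Ptch1 included 0.

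Osteoblast genes had a median of 1.26, with 8 of 14 measured members 2-fold or more higher and 1, Bglap2, lower. Col1a2 was at 2054 and 7086 CPM. Mepe, a mineral matrix protein of osteocytes, was at 1.44 and 16.6 CPM and Ifitm5, a membrane protein of osteoblasts, at 2.53 and 21.7 CPM. Mepe and Ifitm5 were measured only through their mutant level. The transcription factors Runx2 and Sp7 were within 2-fold, at ratios of 0.20 and 0.88, and Sparc was at 24177 and 19848 CPM. The list summed to 30127 and 37485 CPM in cartilage and to 2032 and 9007 CPM in neutrophil-marked barcodes. After thinning, Col1a2 was seen in 95.9% of mutant cartilage cells and 67.3% of mutant neutrophil-marked barcodes, against 61.4% and 13.8% in the wild type. Ibsp was in 33.3% and 24.2%, against 16.4% and 3.11%, and Bglap in 14.97% and 9.42%, against 3.95% and 0.222%. The part of other cells' RNA was not tested with a subtraction scaled to depth.

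The superficial zone of the joint surface is marked by Prg4, which encodes lubricin. Prg4 was at 1962 CPM in the wild type and 309 CPM in the mutant, 6.35-fold lower. Cells with Prg4 at 10 or more per 10000 UMIs were 202 (18.6%) of the wild-type and 188 (8.35%) of the mutant cartilage barcodes. This class is a range and not a type, and 41 wild-type and 171 mutant cells lay between 5 and 20. Since Prg4 itself sets the class, Prg4 levels within and outside it are not compared. In the main sums, other superficial genes did not follow Prg4. Of 10 measured members 2 were 2-fold or more higher, Abi3bp at 76.4 and 208 CPM and Tppp3 at 5.56 and 14.1 CPM. Tppp3 was measured only through its mutant level. Vit was at 184 and 109 CPM, and Cilp and Thbs4 both had ratios of -0.13. Under other choices of cells and processing, Cilp ran from -2.96 to 2.37 and Thbs4 from -2.18 to 2.41, so neither ratio is stable.

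Resting zone genes had a median of 0.01, with 0 of 8 measured members higher and 2 lower past 2-fold, Ucma and Pcp4, the latter at 139 and 61.4 CPM. Sfrp5, a Wnt antagonist of resting cells, was at 77.7 and 39.5 CPM, just within 2-fold, and Pthlh, which encodes PTHrP, was at 17.0 and 21.5 CPM.

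In FGF signalling the receptors differed in direction. Fgfr3, the receptor that restrains growth plate proliferation, was at 145 and 83.6 CPM, a ratio of -0.80, and Fgfr2, a receptor of osteoblast precursors, at 31.9 and 88.3 CPM, 2.76-fold higher. Fgfr1 was at 138 and 156 CPM.

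Among 14 measured Wnt genes, 3 were higher and 2 lower past 2-fold. The ligands Wnt4, at 69.7 and 21.1 CPM, and Wnt5b, at 34.1 and 13.8 CPM, were the lower ones. The higher ones were secreted antagonists, Sfrp2 at 17.2 and 83.8 CPM, Dkk3 at 5.41 and 16.6 CPM and Notum at 19.1 and 42.2 CPM. Dkk3 was measured only through its mutant level. The antagonists Frzb and Sfrp1 were lower in the mutant within 2-fold.

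BMP and TGF-beta genes had a median of 0.43, with 3 of 21 higher and 3 lower past 2-fold. Bmp7, at 31.1 and 10.2 CPM, Gdf10, at 35.3 and 10.05 CPM, and the antagonist Nog, at 34.5 and 16.3 CPM, were lower. The higher genes included the ligand Tgfb3, at 13.9 and 45.2 CPM, and the BMP antagonist Chrd, at 3.63 and 12.4 CPM. Chrd was measured only through its mutant level. The BMP targets Id1 and Id3 had ratios of 0.07 and 0.54.

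All 9 measured genes of the insulin-like growth factor list had ratios above 0, against 51.8% of all measured genes, with a median of 0.97. Past 2-fold were 4 of them, against 6.16% of all measured genes. Igfbp6, 1 of these 4, was at 8.20 CPM in the wild type and was measured only through its mutant level. Igfbp4, a binding protein, was at 65.4 and 179 CPM and Igfbp5 at 59.0 and 126 CPM, besides Igf1 and Igfbp6 above. The imprinted transcript H19 was at 637 and 1244 CPM, just within 2-fold.

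Transcription factors of limb mesenchyme included Prrx1, at 20.6 and 52.3 CPM, and Barx2, the lowest of the list, at 29.4 and 4.44 CPM, 6.62-fold lower. Of 11 measured members 2 were higher and 1 lower past 2-fold, with a median of 0.34. Prrx2, 1 of the higher members, was at 8.30 CPM in the wild type and was measured only through its mutant level.

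Of 10 measured chemokine and inflammation genes, 6 were 2-fold or more higher and 1, Il17b, was lower. The list names 17 genes, and the others were not measured. Cxcl2, Cxcl12, Csf1, Ptgs2 and Lcn2 were under 10 CPM in the wild type, so only a higher mutant level could bring them in. Of the 6 higher genes, the filter left the direction open for Cxcl1 alone, so this count is not read further. Cxcl1, a neutrophil attractant, was at 13.8 and 89.2 CPM, 6.48-fold higher, with 9.12 CPM in mutant neutrophil-marked barcodes, and Cxcl12, a marrow stromal chemokine, was at 1.94 and 14.7 CPM. Csf1 was at 4.52 and 23.9 CPM and Ptgs2 at 9.29 and 40.6 CPM. Cxcl2 and Lcn2 were at 1485 and 5991 CPM in mutant neutrophil-marked barcodes, far above the 21.0 and 103 CPM of mutant cartilage. The interferon and MHC list had 2 of 6 members past 2-fold, Ifitm2 and Ifitm3, with a median of 0.50.

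No gene of S phase and mitosis passed 2-fold, but all 18 measured members were below 0, against 48.2% of all measured genes, with a median of -0.61. Mki67 was at 85.0 and 47.2 CPM and Top2a at 143 and 82.3 CPM. After thinning, Mki67 was seen in 9.02% of wild-type (7.37 to 10.9) and 5.42% of mutant cells (4.51 to 6.46), below the 16.7% and 12.9% of neutrophil-marked barcodes. Summed, the list stood at 867 and 556 CPM in cartilage barcodes and at 1940 and 1047 CPM in neutrophil-marked barcodes, so those barcodes give no background for it, and the part of other cells' RNA was not tested. Ccnd1, a target of growth signals in chondrocytes, was in 9.30% and 2.85% of cells, against 0.444% and 0.665% of neutrophil-marked barcodes.

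ER folding genes, which serve the secretion of matrix, had a median of -0.28, with 0 of 20 past 2-fold, and collagen-modifying enzymes a median of -0.24, with 1 of 17 higher. Serpinh1, the collagen chaperone HSP47, was at 2646 and 1718 CPM. Glycolysis and hypoxia genes had a median of 0.00, with 3 of 19 higher, Car9, Ankrd37 and Egln3, and 1 lower, Car12. Of 15 immediate early and heat shock genes, which respond to dissociation of tissue as well, 5 were higher past 2-fold, Ier3, Dusp1, Nr4a1, Hspa1a and Hspa1b, and the median was 0.45.

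The comparison was repeated within bands of Col2a1, so that cells of a like Col2a1 share were compared. Acan was lower in the mutant in each of the 3 bands, at 2360 and 1004 CPM in cells at 100 to 200, at 3995 and 1229 CPM at 200 to 400, and at 4358 and 1585 CPM at 400 or more. Sox9 was at 376 and 175, at 488 and 168, and at 446 and 188 CPM, and its mutant level did not follow Col2a1. The median of the cartilage collagens was -1.03, -0.72 and -0.49 from the lowest to the highest band, and that of fibrous matrix 1.37, 1.74 and 1.62. In the mutant, Mmp13 stood at 347, 108 and 53.5 CPM and Myoc at 513, 281 and 76.6 CPM in the same order. Both also fell in the wild type, Mmp13 at 24.6, 11.3 and 1.39 CPM (14, 34 and 23 UMIs) and Myoc at 123, 20.2 and 6.10 CPM. Myoc was 4.18-fold, 13.9-fold and 12.6-fold higher in the mutant. Mutant neutrophil-marked barcodes held Mmp13 at 138 CPM, above its level in mutant cartilage at 200 to 400 and at 400 or more. Below the threshold, mutant Mmp13 was at 788 CPM at 30 to 100 and 1313 CPM at 10 to 30, while Myoc was at 540 and 126 CPM. Col2a1 also chose the cells, so these orders are a description. Slurp1 was highest in the middle band, at 306, 317 and 132 CPM. The lowest band held 60 wild-type cells, and in it Matn1 was higher in the mutant, at 54.4 and 110 CPM. Ccnd1 and Panx3 also turned, on 2 and 3 wild-type UMIs.

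**Figure D4:**
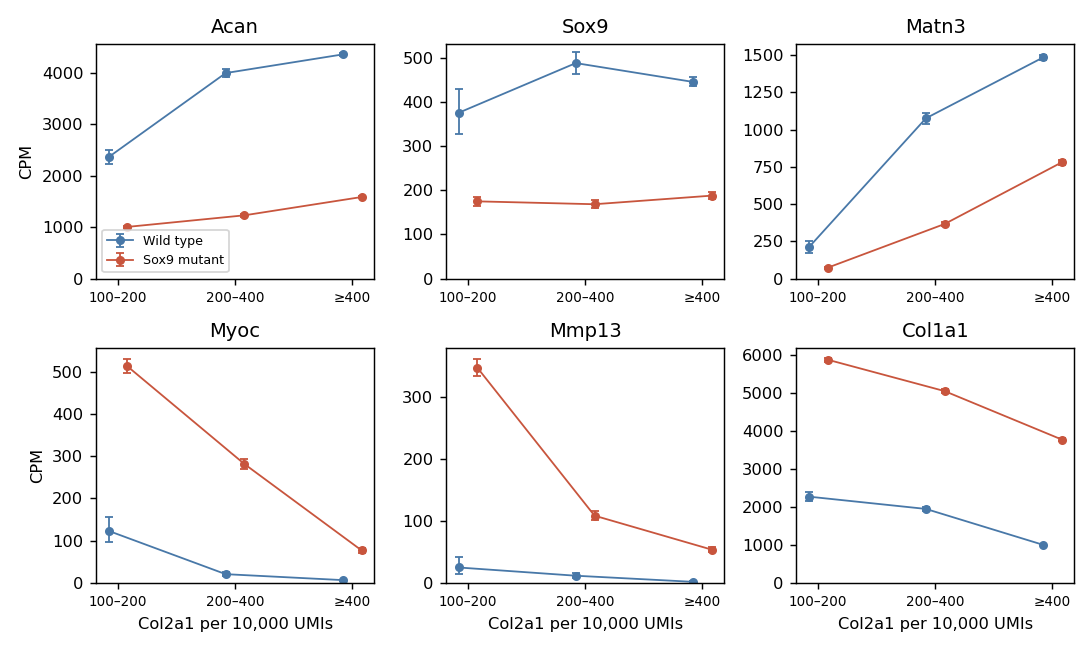
Level in CPM of 6 genes in wild-type (blue) and Sox9 mutant (red) cartilage barcodes split by Col2a1 per 10,000 UMIs, with exact 95% counting intervals as bars. Acan, Sox9 and Matn3 are lower and Myoc, Mmp13 and Col1a1 higher in the mutant in all 3 bands. With increasing Col2a1, Mmp13 goes from 24.6 to 1.39 CPM in the wild type and from 347 to 53.5 CPM in the mutant. Mutant neutrophil-marked barcodes hold Mmp13 at 138 CPM, above mutant cartilage in the upper bands.

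Mutant cells with and without a Sox9 UMI were compared with each other after thinning, 615 against 1562 cells. Acan was at 1221 CPM with and 1234 CPM without a Sox9 UMI, a log2 ratio of -0.02 (-0.10 to 0.07), and Col9a3, Hapln1 and Prelp had ratios of -0.02, -0.02 and 0.01. Mmp13 was lower in cells with a Sox9 UMI, at 110 and 157 CPM, a ratio of -0.52 (-0.80 to -0.24), and Slurp1 was higher, at 230 and 166 CPM, a ratio of 0.47 (0.25 to 0.68). RNA of other cells was also lower in mutant cells with a Sox9 UMI, with ratios of -1.39 for S100a8, -1.27 for S100a9, -2.22 for Camp, -1.54 for Ngp and -0.69 for Hbb-bs, and its part in the Mmp13 ratio was not tested. In the wild type, 588 cells with and 476 without a Sox9 UMI had an Acan ratio of 0.01 (-0.05 to 0.07). A cell without a Sox9 UMI among 2000 may still express the gene, so this split does not separate recombined from other cells.

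At day 13 the same rule gave 565 genes higher (7.73%) and 174 lower (2.38%) by 2-fold or more among 7311 measured genes. Of genes measured at both ages, 324 were higher at both, which is 76.4% of those higher at day 19 and 63.3% of those higher at day 13. Lower at both were 100 genes, 64.5% of those at day 19 and 61.3% of those at day 13. The ages share no library, but each is 1 library per genotype. Acan had ratios of -1.99 at day 13 and -1.70 at day 19, Sox9 of -0.84 and -1.34, Mmp13 of 5.50 and 5.47, and Il17b of -5.17 and -7.11.

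Some ratios differed widely between the ages, and these differences have a counting interval but no test. Prg4 had a ratio of -0.55 at day 13 and -2.67 at day 19, with wild-type levels of 672 and 1962 CPM. Ibsp had 3.73 and 1.10, and Bglap 3.93 and 1.69, with wild-type levels of 434 and 74.3 CPM at day 13 and of 1255 and 210 CPM at day 19. Spata7, a ciliary gene, had 3.17 and 0.10, with wild-type levels of 8.17 and 76.5 CPM. Matn1 had -2.75 and -1.27, and Msmp 1.11 and 2.89. Lars2, a mitochondrial tRNA synthetase gene, had 0.15 and 1.44. The superficial zone list had a median of 1.38 at day 13 and 0.28 at day 19, but at day 19 the median was -0.36 with each cell weighted alike and -0.40 with thinned cells.

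**Figure D5:**
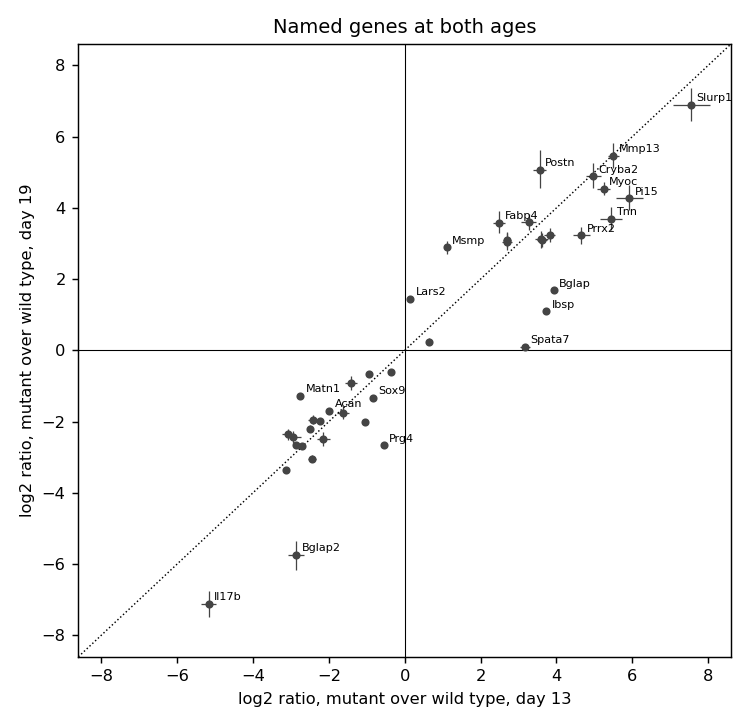
Log2 ratio of Sox9 mutant over wild type at day 13 (horizontal) and day 19 (vertical) for the named genes, with exact 95% counting intervals as bars and the line of equality dotted. Labels mark Sox9, Acan and genes whose ratio is extreme or differs by 1 or more. Ibsp, Bglap, Spata7 and Prg4 lie below the line, and Msmp, Postn, Matn1 and Lars2 above it.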

How the data were processed

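For every barcode the deposited matrices hold unnormalized UMI counts, written by Cell Ranger 3.1.0 per the file headers. The submitters' processing notes give the build as mm10 and also name Seurat 3, with no role given. Of 31053 features 30934 matched GENCODE M21 on GRCm38, which gave coordinates, counted from 1. UMIs were summed over the barcodes the rule kept, in Python 3.11.15 with numpy 2.4.6, scipy 1.17.1 and pandas 2.3.3, and scaled to CPM. For ratios, 3 counts stood in for a 0 in 1 library, and no ratio was formed where both libraries had 3 counts or fewer. Levels have exact Poisson intervals, ratios exact conditional binomial and shares exact Clopper-Pearson intervals. The ratio intervals contained the true ratio of 95.7% of 6714 genes in data simulated for this comparison. Those data were Poisson counts per gene without cells, as the intervals assume. The value therefore checks the calculation and not how well the intervals hold in these data. For shares, cells under 2000 UMIs were left out, 24 wild-type and 75 mutant. Neutrophil-marked barcodes had a Ptprc UMI and S100a8 at 50 or more per 10000, 521 wild-type and 1271 mutant.

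Doublets were not removed. Scrublet in scanpy 1.11.5 marked 0 wild-type barcodes at its automatic threshold, so it did not work there, and a score above 0.25 was used as an alternative. TMM factors came from edgeR 4.0.16. Named genes were Sox9, Sox5, Sox6, Sox8, Acan and Col2a1, the 15 highest and 15 lowest ratios at 50 CPM or more, and the 4 genes each way farthest from day 13, 42 in all. Members of 26 lists were named in the account of their list. Mitochondrial, ribosomal, haemoglobin, immunoglobulin, sex-linked and clone-named genes were left out of the rankings. Members and lists were chosen with earlier results of these data known. Snorc, a chondrocyte marker, matched no symbol. Of the BMP and TGF-beta list, 1 member is not reported here.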

Additional observations from a re-analysis of the deposited data

Results flagged for a closer look

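These ratios of mutant over wild type had opposite signs at days 13 and 19. The differences between the ages were not tested, and each age has 1 library per genotype. The cell cycle list had a median log2 ratio of 0.27 at day 13 and -0.61 at day 19, and its member Cenpf, a kinetochore protein gene, had 0.70 and -0.75. The list of ER folding and secretion had a median of 0.18 at day 13 and -0.28 at day 19, and its member Pdia3, a disulfide isomerase gene, had 0.64 and -0.41. Vit, which encodes the matrix protein vitrin and is in the superficial zone list, had 0.43 and -0.76.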

How the results depend on the processing

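Of 18 other processing choices, removal of doublets at the automatic threshold was not run, and the results were recomputed under the rest and under 4 more chosen after the data were seen (free RNA subtraction, a fixed doublet score, Prg4 and Col10a1 cells left out together, mitochondrial and haemoglobin UMIs left out). Of 520 list medians, 505 stayed within 1.5-fold of the main value. The 112 list members and named genes past 2-fold kept their direction in 2223 of 2236 values. Of these values 2068 stayed past 2-fold, and 58 of the 112 genes were past 2-fold in every setting. The counts of higher and lower genes were 989 and 554 at 1.5-fold, 96 and 33 at 4-fold, 154 and 74 at 50 CPM or more, and 2478 and 968 with no filter but 1 count. Lower genes numbered 789 at Col2a1 of 100 to 200, 280 at 200 to 400 and 293 with free RNA subtracted, with the measured genes chosen anew in each setting. Among the 7337 genes of the main comparison, 465 were lower at 100 to 200 and 239 at 200 to 400. The superficial zone median was -0.36 with each cell weighted alike, -0.40 with thinned cells, 1.39 without Prg4 cells, 1.38 without Prg4 and Col10a1 cells and -1.74 at Col2a1 of 100 to 200. Leaving out those cells by their Prg4 gave Prg4 1.48 and 1.45, which that choice decides, and insulin-like growth factors 1.59 and 1.61. At Col2a1 of 100 to 200, which holds 60 wild-type cells, medians were -1.78 for resting zone, -0.44 for FGF and 0.80 for chemokines, and the ratios of Barx2 (0.52), Ccnd1 (1.04), Matn1 (1.01), Nog (1.56), Panx3 (2.18), Dkk3 (-0.79), Fn1 (-0.10), Igfbp5 (-1.09), Notum (-0.62), Podn (-0.043) and Tppp3 (-2.09) reversed. Chemokines were at 1.57 and 1.63 in the upper bands and small leucine-rich proteoglycans at 1.28 at 200 to 400. Subtracting the neutrophil-marked level gave cell cycle 0.15 and interferon genes -6.26, values that say nothing of free RNA, since both lists were higher in neutrophil-marked than in cartilage barcodes. The cause of the other changes was not tested. No paired analysis was possible because each group is 1 library with replicate number 1. With 1 library per genotype, differences between mice, dissection, batch and genotype cannot be told apart, and depth limits genes under 10 CPM.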
